A study of Mus musculus with 17 samples.

Results

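The genes examined are 8 clock output and secondary loop factors, Dbp, Tef, Hlf, Nfil3, Ciart, Bhlhe40, Bhlhe41 and Rora, of 33840 genes in the intestinal count table and 24594 identifiers in the table labelled liver. They were chosen by name, for their place downstream of the circadian clock, after results of these data were known, and Dbp and Tef were already known to be far apart between hepatectomy and sham crypts. The crypt comparison is therefore given as a description, with no test. All 8 genes were found in both tables, and 7 of them passed the filter on low counts in the intestine. Bhlhe41 did not, with 4 to 11 counts per intestinal library.

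Bulk RNA sequencing covered 17 libraries of wild-type mice in 7 groups. Of these, 8 came from the small intestine, as hepatectomy IEC, sham IEC, hepatectomy crypts and sham crypts, with 2 libraries each; IEC is the usual short form for intestinal epithelial cells, and crypts are the pockets of that epithelium where its stem cells sit. Hepatectomy is the surgical removal of liver tissue, and a sham operation stops short of it. The other 9 libraries carry a liver label and a DSS treatment label, the usual short form of dextran sulfate sodium, at day 0, day 10 or day 20, with 3 libraries a day; the day 0 libraries carry the DSS label too. Sex, age, strain and the hour of tissue collection are not given in the labels. Whether each library is a mouse of its own is not stated, so p-values describe the spread among these samples, part of which may be technical.

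Dbp, Tef and Hlf form the PAR bZIP family, transcription activators that bind D-box elements and pass clock time on to genes of drug, lipid and amino acid metabolism in liver, kidney and intestine. Nfil3, also called E4bp4, is a repressor that binds the same D-box and peaks in the opposite phase. Ciart (Chrono) and Bhlhe40 and Bhlhe41 (Dec1 and Dec2) repress transcription driven by CLOCK and BMAL1, the activators at the centre of the clock, which bind E-boxes. Rora is a nuclear receptor that activates Arntl, the gene of BMAL1, through ROR elements, where the Nr1d1 and Nr1d2 proteins repress. Levels of these transcripts differ with the hour of the day in many tissues, and the hour was not a variable that could be examined here.

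On mm10, Dbp lies at chr7:45705088-45710203 (plus strand), Tef at chr15:81802421-81826863 (plus) and Hlf at chr11:90336536-90390895 (minus). Nfil3 lies at chr13:52967209-52981073 (minus), Ciart at chr3:95878503-95882251 (minus) and Rora at chr9:68653786-69388246 (plus). Bhlhe40 at chr6:108660629-108666925 (plus) and Bhlhe41 at chr6:145858243-145865558 (minus) share a chromosome. All 8 are annotated as protein coding. Dbp overlaps Sphk2, the gene of a sphingosine kinase on the other strand, over 539 bases or 18.0% of its exon length, and since the strand used in counting is not stated, reads of that stretch cannot be assigned between the 2 genes. Tef overlaps the antisense gene Gm17597 over 193 bases, 2.45% of its exon length. Bhlhe41 overlaps Gm43909 over 1280 bases, and the other overlaps with annotated genes cover at most 118 bases.

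Promoter windows of 250 bases before to 50 bases after the annotated start (RefSeq, GRCm38.p6) were available for 7 of the 8 genes, with a pair of windows for Tef. They were searched on both strands for the E-box CACGTG, the E-prime box CACGTT, the D-box as TTATGTAA, TTACGTAA or TTATGCAA, and the ROR element as TAGGTCA or TGGGTCA; no letters are shared between the matches reported. The windows below are shown because the genes behind them moved most in the intestine (Dbp, Tef), or whose windows carry 3 E-boxes (Ciart) or the ROR element (Nfil3); capitals mark the matches, and every sequence runs 5′ to 3′ on the strand of the gene.
Ciart (chr3:95882179-95882478, minus strand): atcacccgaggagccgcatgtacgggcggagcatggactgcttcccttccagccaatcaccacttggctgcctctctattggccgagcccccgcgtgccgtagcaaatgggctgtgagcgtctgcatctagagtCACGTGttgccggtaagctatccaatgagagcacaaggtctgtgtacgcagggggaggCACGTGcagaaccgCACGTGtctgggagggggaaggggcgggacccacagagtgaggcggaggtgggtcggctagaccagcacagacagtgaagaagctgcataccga
Tef, upstream start (chr15:81802423-81802722, plus strand): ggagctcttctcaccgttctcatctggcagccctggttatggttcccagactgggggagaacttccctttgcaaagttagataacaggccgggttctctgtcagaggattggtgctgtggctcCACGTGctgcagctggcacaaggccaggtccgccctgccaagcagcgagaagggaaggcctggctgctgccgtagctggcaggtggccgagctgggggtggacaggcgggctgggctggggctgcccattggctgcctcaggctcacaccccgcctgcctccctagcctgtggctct
Tef, downstream start (chr15:81811164-81811463, plus strand): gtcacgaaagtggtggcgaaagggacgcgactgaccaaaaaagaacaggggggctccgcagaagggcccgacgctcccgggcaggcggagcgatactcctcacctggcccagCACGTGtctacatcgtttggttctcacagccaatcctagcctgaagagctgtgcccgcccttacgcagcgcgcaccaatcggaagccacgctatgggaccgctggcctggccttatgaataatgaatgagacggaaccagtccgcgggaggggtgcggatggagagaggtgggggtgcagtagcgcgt
Nfil3 (chr13:52980990-52981289, minus strand): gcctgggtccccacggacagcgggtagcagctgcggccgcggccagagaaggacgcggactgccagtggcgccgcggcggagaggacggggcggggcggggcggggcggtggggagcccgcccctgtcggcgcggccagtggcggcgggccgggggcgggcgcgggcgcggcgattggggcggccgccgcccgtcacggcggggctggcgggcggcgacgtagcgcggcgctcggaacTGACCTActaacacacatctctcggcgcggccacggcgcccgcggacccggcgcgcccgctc
Dbp (chr7:45704997-45705296, plus strand): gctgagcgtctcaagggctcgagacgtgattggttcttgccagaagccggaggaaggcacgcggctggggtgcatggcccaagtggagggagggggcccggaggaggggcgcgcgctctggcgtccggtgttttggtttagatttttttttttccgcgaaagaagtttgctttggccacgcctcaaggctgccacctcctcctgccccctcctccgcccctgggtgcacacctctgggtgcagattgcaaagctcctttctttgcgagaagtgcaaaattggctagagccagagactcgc
The Ciart window held 3 E-boxes, which begin 116, 58 and 44 bases before the start. Each Tef window held 1, which begins 127 and 138 bases before its start, and the Bhlhe41 window held 1 at 153 bases before the start. The Nfil3 window held 1 ROR element, read on the opposite strand, 12 bases before the start. No match was found in the windows of Dbp, Hlf and Rora, which says only that these letters are not there. In all, 4 of 8 windows held an E-box and 1 of 8 a ROR element, while among 32851 windows of the same length 7.15% held an E-box, 4.68% an E-prime box, 1.78% a D-box and 6.45% a ROR element.

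An intestinal library held 26609786 to 43580050 counts in all, and a library labelled liver 12742629 to 42669857. Levels below are TMM-normalised CPM, that is counts scaled to a common library size, given for each library in the order of replicate number, then as mean ± SD; changes are log2 fold changes ± SE, and adjusted p-values are those of edgeR's quasi-likelihood F test, Benjamini-Hochberg adjusted over all genes tested. The libraries labelled liver were set against tissue markers before use. As CPM of all counts, without TMM scaling, Alb, which encodes albumin and defines hepatocytes, stood at 309 to 487 at day 0, 438 to 1900 at day 10 and 34800 to 37900 at day 20. Olfm4, a marker of intestinal crypt cells, stood at 8000 to 8600, 2690 to 7830 and 26.9 to 40.6. The day 0 and day 10 libraries thus carry crypt markers and little Alb against their label, and are called here by their label and day only. In the intestinal libraries Alb was at most 0.291 CPM of all counts. Summed olfactory receptor genes, which neither tissue is known for, were 131 to 139 CPM of all counts in hepatectomy IEC and 70.7 to 82.3 in sham IEC. In crypts they were 158 to 164 after hepatectomy and 62.5 to 69.1 after sham operation. Genes with any count numbered 31030 and 31065 in hepatectomy IEC and 26731 and 26915 in sham IEC. In crypts they numbered 30345 and 30520 after hepatectomy and 25010 and 25762 after sham operation. The part of the olfactory receptor sums and of these detection differences in the results below was not tested. The hepatectomy and sham libraries also fall in separate series of running numbers in the file headers, so the operation and whatever those series mark cannot be told apart.

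Hepatectomy was compared with sham in IEC, a contrast in which 5 of the 7 measured factors rose (Dbp, Tef, Hlf, Ciart, Bhlhe40), 1 fell (Nfil3) and Rora did not pass the test. The PAR bZIP activators and Ciart had the largest changes, and the repressor Nfil3 went the other way. Over all 18207 genes tested, 19.5% rose and 18.3% fell. The IEC libraries share the operation and the fit with the crypt libraries known when the members were chosen. The members' calls and p-values in IEC are thus not independent of that choice.

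Dbp, the PAR bZIP factor with the largest daily amplitude in most tissues, had 24.4 and 39.3 CPM in hepatectomy IEC, against 0.746 and 0.959 CPM in sham IEC. The 2 hepatectomy libraries lie far above both sham libraries, though they differ between themselves more than the sham pair does. Dbp averaged 31.9 ± 11 CPM in hepatectomy IEC and 0.853 ± 0.15 CPM in sham IEC (SD, n = 2 each), a log2 fold change of 5.22 ± 0.28 (adjusted p = 3.1e-08). The sham levels rest on 20 and 25 counts. Sphk2, whose exons overlap those of Dbp, had 130 and 121 CPM in hepatectomy IEC and 110 and 109 CPM in sham IEC, a difference of the same direction; how reads of the shared stretch were assigned was not tested.

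Tef, a PAR bZIP activator with a flatter daily course, had 26.6 and 29.4 CPM in hepatectomy IEC, against 4.18 and 5.18 CPM in sham IEC. The groups do not overlap, and replicates sit close together in both. The log2 fold change was 2.58 ± 0.14 (adjusted p = 3.2e-08). Its overlap partner Gm17597 had at most 0.337 CPM in any library.

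Hlf, the third PAR bZIP activator, had 2.59 and 3.86 CPM in hepatectomy IEC, far below Dbp and Tef. In sham IEC it had 0.858 and 0.806 CPM, near Dbp and below Tef. Both hepatectomy libraries were above both sham libraries. The log2 fold change was 1.95 ± 0.30 (adjusted p = 0.00025).

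Nfil3, the D-box repressor, had 15.1 and 16.8 CPM in hepatectomy IEC, against 28.8 and 27.7 CPM in sham IEC. It was the member that fell in IEC, by 0.83 on the log2 scale (SE 0.094, adjusted p = 2.1e-05), and the groups do not overlap. Ciart, the repressor of CLOCK and BMAL1, had 1.61 and 2.11 CPM in hepatectomy IEC and 0.410 and 0.269 CPM in sham IEC. Its sham values rest on 11 and 7 counts. The log2 fold change was 2.43 ± 0.36 (adjusted p = 0.00017).

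Bhlhe40, the abundant E-box repressor, had 91.3 and 88.8 CPM in hepatectomy IEC and 52.7 and 53.7 CPM in sham IEC. The change of 0.76 ± 0.062 (adjusted p = 1.1e-06) was the smallest of the 5 rises, and replicates differed by little. Its paralog Bhlhe41 had 5 and 11 counts in hepatectomy IEC and 4 and 7 counts in sham IEC, too few for the test. Rora had 0.755 and 0.464 CPM in hepatectomy IEC and 0.821 and 1.19 CPM in sham IEC. The 2 groups do not overlap, but the log2 fold change of -0.71 ± 0.43 did not pass the test (adjusted p = 0.22).

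**Figure D1:**
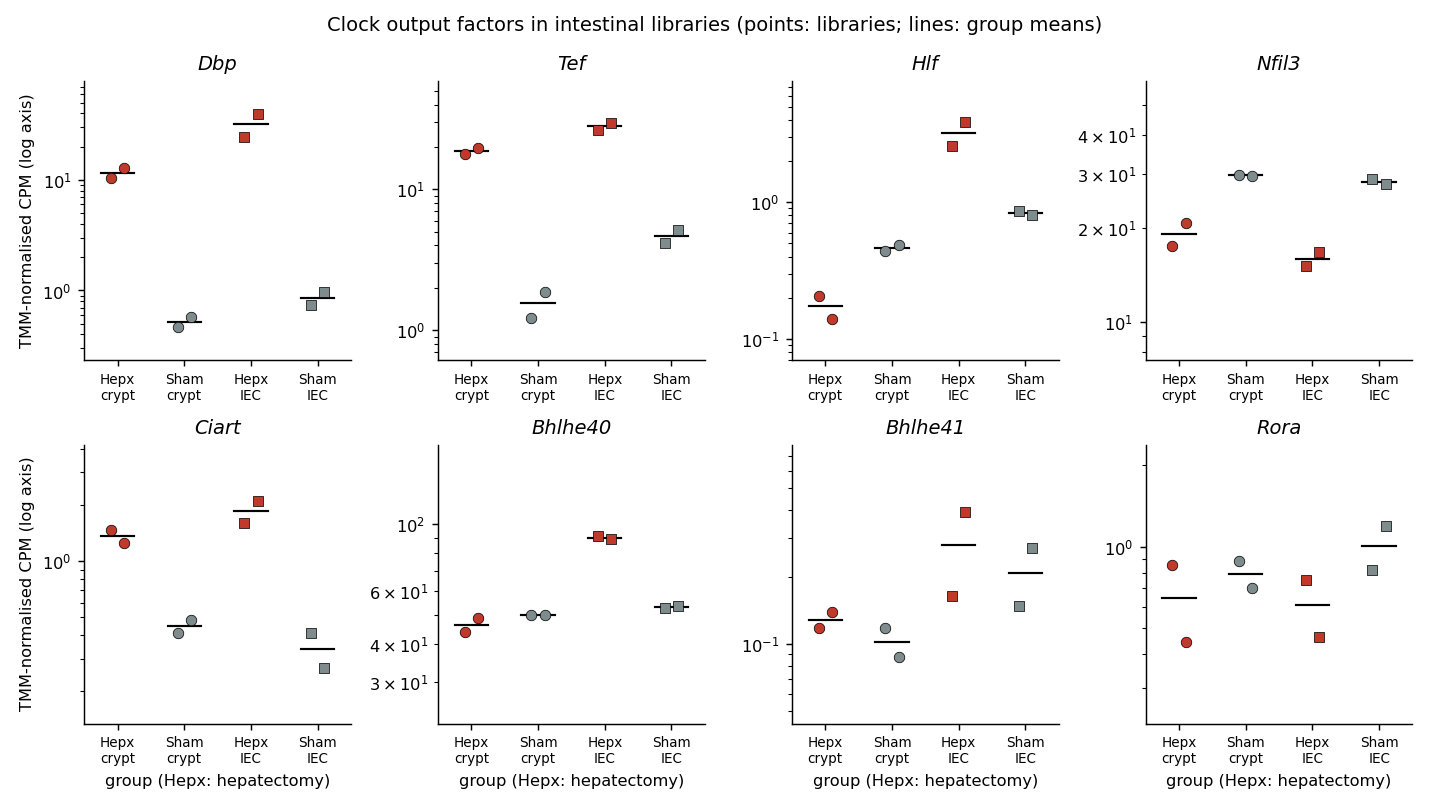
Levels of the 8 factors in the intestinal libraries, as TMM-normalised CPM on a log axis that differs between panels; each point is a library (circles, crypts; squares, IEC; red, hepatectomy; grey, sham) and each line a group mean, with 2 libraries per group. Dbp and Tef lie higher after hepatectomy in both preparations, Nfil3 lies lower in both, and Hlf lies higher in hepatectomy IEC (2.59 and 3.86 CPM) but lower in hepatectomy crypts (0.206 and 0.140 CPM).

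In crypts the same comparison is described only. In 3 of the 7 measured factors both hepatectomy libraries were above both sham libraries (Dbp, Tef, Ciart), in 3 both were below (Hlf, Nfil3, Bhlhe40), and Rora overlapped. Over all 18207 genes, 34.6% were higher and 34.5% lower with no overlap of the libraries. Dbp had 10.4 and 12.8 CPM in hepatectomy crypts, against 0.470 and 0.571 CPM in sham crypts, a log2 fold change of 4.46. Sphk2 also differed here, with 97.6 and 94.4 CPM in hepatectomy crypts and 66.1 and 64.6 CPM in sham crypts, and its part in the Dbp counts was not tested. Tef had 17.9 and 19.7 CPM in hepatectomy crypts and 1.23 and 1.87 CPM in sham crypts, a log2 fold change of 3.56. Both activators were thus many times higher in the hepatectomy libraries, with replicates near each other.

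Hlf did not follow its family members in crypts. It had 0.206 and 0.140 CPM in hepatectomy crypts, from 7 and 6 counts, against 0.441 and 0.484 CPM in sham crypts, from 15 and 22 counts, a log2 fold change of -1.43. Nfil3 had 17.5 and 20.9 CPM in hepatectomy crypts and 29.8 and 29.5 CPM in sham crypts, a log2 fold change of -0.62, beside -0.83 in IEC. Ciart had 1.47 and 1.26 CPM in hepatectomy crypts and 0.412 and 0.484 CPM in sham crypts, a log2 fold change of 1.58. Bhlhe40 had 43.8 and 49.0 CPM in hepatectomy crypts and 50.1 and 50.0 CPM in sham crypts, and its log2 fold change of -0.11 was between -0.02 and -0.20 when either hepatectomy library was left out. Rora had 0.852 and 0.443 CPM in hepatectomy crypts and 0.882 and 0.703 CPM in sham crypts, and its log2 fold change of -0.31 was -0.82 without the first hepatectomy library and 0.11 without the second. Bhlhe41 had 4 and 6 counts in hepatectomy crypts and 4 and 4 counts in sham crypts.

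**Figure D2:**
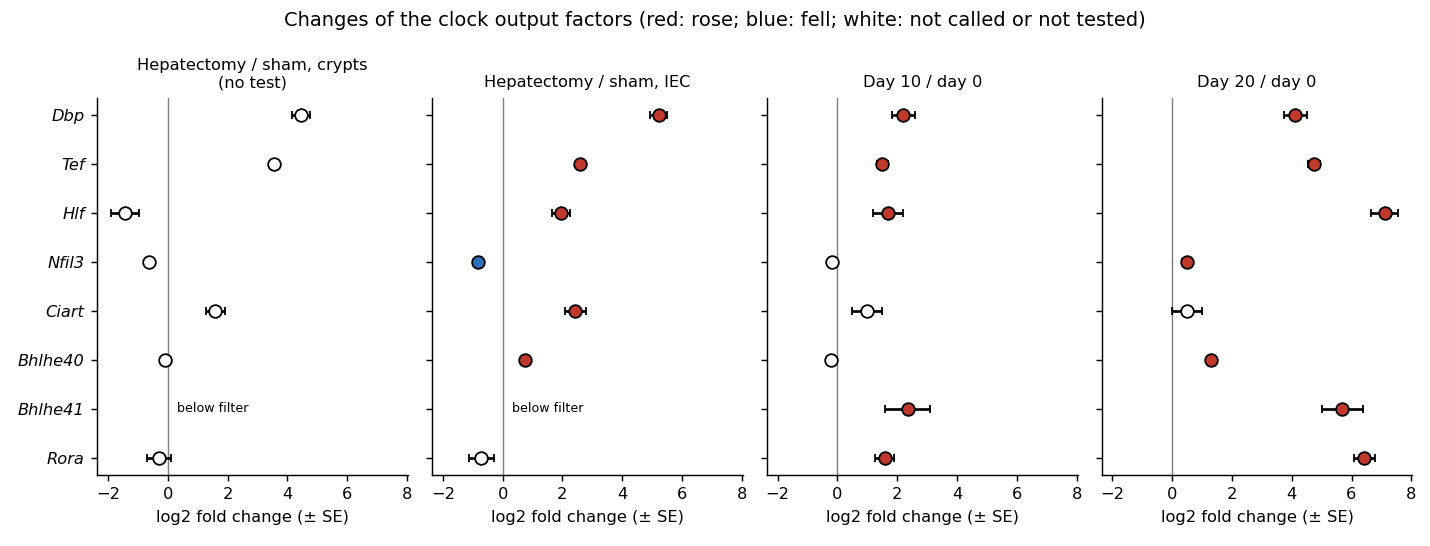
Log2 fold changes (x axis, ± SE) of the 8 factors (y axis) after hepatectomy in crypts and in IEC, and at day 10 and day 20 against day 0 in the libraries labelled liver; red marks genes that rose and blue those that fell at an adjusted p under 0.05, and white those not called or, in crypts, not tested. Dbp has the largest value in both intestinal panels (4.46 in crypts, 5.22 in IEC) and Hlf at day 20 (7.11).

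Markers of several cell types moved with the operation. Their sums are CPM of all counts, without TMM scaling, and are not on the scale of the levels above. TMM scaling would divide them by 1.28 and 1.21 in sham crypts and by 1.00 and 0.986 in hepatectomy crypts. In IEC the factors were 0.973 and 0.968 after sham operation and 0.844 and 0.828 after hepatectomy. The differences between groups in these sums would thus change with that scaling. The summed level of 8 enterocyte markers, among them the brush border enzyme Alpi, was 56900 to 60600 CPM in hepatectomy IEC and 25300 to 25900 CPM in sham IEC, and 9630 to 9820 CPM in hepatectomy crypts and 4240 to 4530 CPM in sham crypts; all 8 rose in IEC. The 9 markers of T and innate lymphocytes, cells in which Nfil3 and Rora are known for their part in development, summed to 30.2 to 30.4 CPM in hepatectomy crypts and 99.6 to 101 CPM in sham crypts, and to 67.0 to 68.5 CPM in hepatectomy IEC and 92.7 to 94.8 CPM in sham IEC; 7 of the 8 tested were lower in hepatectomy crypts with no overlap, and 3 of the 8 fell in IEC. The 4 fibroblast markers summed to 5.93 to 6.75 CPM in hepatectomy crypts, against 0.752 to 0.980 CPM in sham crypts, and all 3 that were tested were higher. The 4 Paneth cell markers summed to 263 to 264 CPM in hepatectomy crypts and 821 CPM in sham crypts, and the 3 mast cell markers to 0.620 to 1.26 CPM in hepatectomy crypts and 27.6 to 32.2 CPM in sham crypts. The 4 crypt stem cell markers summed to 1030 to 1040 CPM in hepatectomy crypts and 2230 to 2310 CPM in sham crypts. In IEC they summed to 611 to 634 CPM after hepatectomy and 1490 to 1500 CPM after sham operation. Olfm4 made up most of these sums, at 922 CPM in hepatectomy crypts and 2050 to 2110 CPM in sham crypts. In IEC Olfm4 stood at 520 to 537 CPM after hepatectomy and 1350 to 1360 CPM after sham operation. Of the 4 genes, 3 were lower in hepatectomy crypts with no overlap, and 2 fell in IEC. The 4 goblet cell markers summed to 1190 to 1230 CPM in hepatectomy crypts and 3720 to 3920 CPM in sham crypts, and the 4 B and plasma cell markers to 72.3 to 75.0 CPM in hepatectomy IEC and 315 to 326 CPM in sham IEC. In IEC the goblet sum differed less, at 3130 to 3140 CPM after hepatectomy and 3350 to 3510 CPM after sham operation. There 1 of 4 goblet markers rose and 2 fell, and 1 of 4 Paneth cell markers rose and 3 fell. The 3 tuft cell markers summed to 65.8 to 67.4 CPM in hepatectomy IEC and 70.9 to 75.3 CPM in sham IEC. Over all genes, 19.5% rose and 18.3% fell in IEC, and 34.6% were higher and 34.5% lower in crypts with no overlap. In bulk samples, fewer cells of a type and less RNA per cell cannot be told apart. The part of these markers in the factors' levels was not tested.

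Crypts were also compared with IEC within each operation. The crypt libraries used here are those known when the members were chosen, so the members' p-values below do not stand apart from that choice. In sham mice all 8 enterocyte markers fell in crypts (median -2.72), but so did 3 of 4 Paneth cell and 3 of 3 tuft cell markers. The stem cell gene Lgr5 had 12.9 and 12.6 CPM in sham crypts and 16.0 and 17.1 CPM in sham IEC. Without TMM scaling, the Paneth sum was 821 CPM of all counts in sham crypts and 1320 to 1380 CPM in sham IEC. After hepatectomy 8 of 8 enterocyte, 4 of 4 Paneth and 3 of 3 tuft cell markers fell in crypts. Of all genes, 26.3% rose and 25.6% fell there. Of the 4 crypt stem cell markers 2 rose and 1 fell in crypts within each operation, so crypt markers did not all follow the label, and the part of cell content in the factors' levels was not tested. Among the factors, 1 of the 7 fell in sham crypts, Tef, and none rose, while 19.3% of all genes rose and 19.3% fell. Tef averaged 1.55 ± 0.45 CPM in sham crypts and 4.68 ± 0.71 CPM in sham IEC (SD, n = 2 each), a log2 fold change of -1.56 ± 0.19 (adjusted p = 4.0e-05). The other log2 fold changes lay between -0.84 for Hlf (adjusted p = 0.090) and 0.40 for Ciart (adjusted p = 0.49). Nfil3 and Bhlhe40, the most abundant members, differed by 0.07 (adjusted p = 0.58) and -0.09 (adjusted p = 0.29).

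After hepatectomy 4 factors fell and 1 rose in crypts against IEC, with 25.6% of all genes falling and 26.3% rising. Hlf averaged 0.173 ± 0.047 CPM in hepatectomy crypts and 3.23 ± 0.89 CPM in hepatectomy IEC, a log2 fold change of -4.22 ± 0.36 (adjusted p = 9.5e-07). Dbp fell by 1.45 (SE 0.18, adjusted p = 2.6e-05), Bhlhe40 by 0.95 (SE 0.061, adjusted p = 5.9e-08) and Tef by 0.57 (SE 0.11, adjusted p = 0.0011) on the log2 scale. Nfil3 rose by 0.28 ± 0.094 (adjusted p = 0.027), a call lost in 5 of the alternatives run, among them leaving out replicate 1 of hepatectomy IEC (0.20, adjusted p = 0.19) or replicate 2 of hepatectomy crypts (0.15, adjusted p = 0.25). Ciart (-0.45, adjusted p = 0.20) and Rora (0.05, adjusted p = 0.94) did not pass the test. Both comparisons of crypts with IEC share libraries with the hepatectomy comparisons above, so none of these values is independent of those. They also rest on the crypt libraries in which Dbp and Tef were already known to be far apart. Their p-values are thus not independent of the choice of members.

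Since the PAR bZIP factors and Nfil3 bind the same D-box, their levels per kilobase of exon model were set side by side, a sum formed after the values were seen and given as a description. The 3 activators together had 1.60 and 2.10 times the level of Nfil3 in hepatectomy IEC, against 0.0640 and 0.0803 times in sham IEC. In crypts the ratio was 0.668 and 0.660 after hepatectomy and 0.0258 and 0.0344 after sham operation. Thus the summed activators lay above the repressor in hepatectomy IEC and below it in the other 3 intestinal groups; per length of the longest transcript they lay above it in hepatectomy crypts too, at a mean ratio of 1.12. Dbp made up 68.4 and 75.3% of the summed activator level in hepatectomy IEC and 27.4 and 29.1% in sham IEC, where Tef was the largest part at 58.4 and 59.9%. Hlf made up 0.532 and 0.307% of it in hepatectomy crypts and 17.4 and 14.5% in sham crypts.

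**Figure D3:**
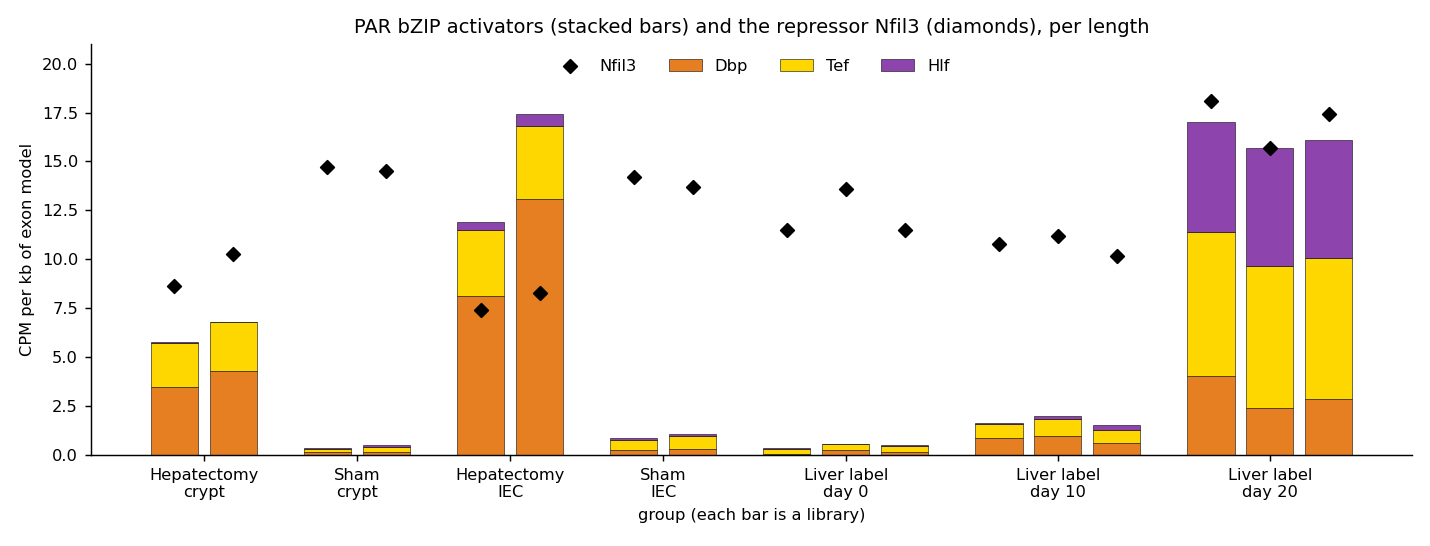
Levels per kilobase of exon model (y axis, CPM per kb) of the PAR bZIP activators Dbp, Tef and Hlf (stacked bars, 1 bar per library) and of the repressor Nfil3 (diamonds) in the 7 groups. The bars top the diamonds in the 2 hepatectomy IEC libraries, and at day 20 of the libraries labelled liver the ratios are 0.924 to 0.997 on this exon model, and 1.42 to 1.53 per length of the longest transcript.

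Compared per kilobase of exon model, Bhlhe40 was the most abundant of the 8 in hepatectomy IEC (19.1 ± 0.38 CPM per kb), before Dbp (10.7 ± 3.5) and Nfil3 (7.87 ± 0.61), whose libraries overlap each other, and Tef (3.56 ± 0.24). In sham IEC Nfil3 led (13.9 ± 0.36 CPM per kb), before Bhlhe40 (11.3 ± 0.16) and, far lower, Tef (0.595 ± 0.090) and Dbp (0.285 ± 0.050). In hepatectomy crypts Bhlhe40 (9.87 ± 0.78 CPM per kb) and Nfil3 (9.49 ± 1.2) overlapped, with Dbp (3.88 ± 0.56) and Tef (2.39 ± 0.17) next. In sham crypts Nfil3 (14.6 ± 0.12 CPM per kb) and Bhlhe40 (10.6 ± 0.016) again lay far above the rest, of which Ciart (0.198 ± 0.023) and Tef (0.197 ± 0.057) overlapped. Per length of the longest transcript Bhlhe40 came before Nfil3 in both sham groups, and Tef and Dbp before Ciart in sham crypts, so these orders rest on the transcript model. Bhlhe41 was last in all 4 intestinal groups, at 0.0153 to 0.0415 CPM per kb on average.

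The core clock, 18 genes of which none is among the 8, was measured beside its outputs. In IEC 8 of the 18 rose and 4 fell after hepatectomy, with a median log2 fold change of 0.158, against 0.0235 over all genes. Of all genes, 19.5% rose and 18.3% fell. Arntl, the gene of BMAL1, fell to 12.1 ± 0.47 CPM in hepatectomy IEC, against 35.9 ± 0.26 CPM in sham IEC, by 1.57 on the log2 scale (adjusted p = 1.0e-08). The period gene Per3 averaged 17.5 ± 0.74 CPM in hepatectomy IEC and 3.73 ± 0.31 CPM in sham IEC (log2 fold change 2.23 ± 0.14, adjusted p = 8.9e-08), and Nr1d2, the repressor at ROR elements, 29.5 ± 3.3 CPM in hepatectomy IEC and 7.61 ± 0.26 CPM in sham IEC (1.95 ± 0.12, adjusted p = 1.2e-07). The activator gene thus fell while Per3 and Nr1d2 rose.

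In crypts, without a test, 10 of the 18 core clock genes were higher and 7 lower after hepatectomy with no overlap, over a range of -1.26 to 2.73, beside 34.6% and 34.5% of all genes. Arntl, at the low end, had 15.5 and 16.4 CPM in hepatectomy crypts and 39.0 and 37.3 CPM in sham crypts. Nr1d1, at the high end, had 51.8 and 60.1 CPM in hepatectomy crypts and 7.88 and 8.90 CPM in sham crypts. The period gene Per2 differed far less, with 6.17 and 6.89 CPM in hepatectomy crypts and 5.26 and 5.60 CPM in sham crypts, against 19.2 and 17.4 CPM in hepatectomy IEC and 5.04 and 5.75 CPM in sham IEC.

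**Figure D4:**
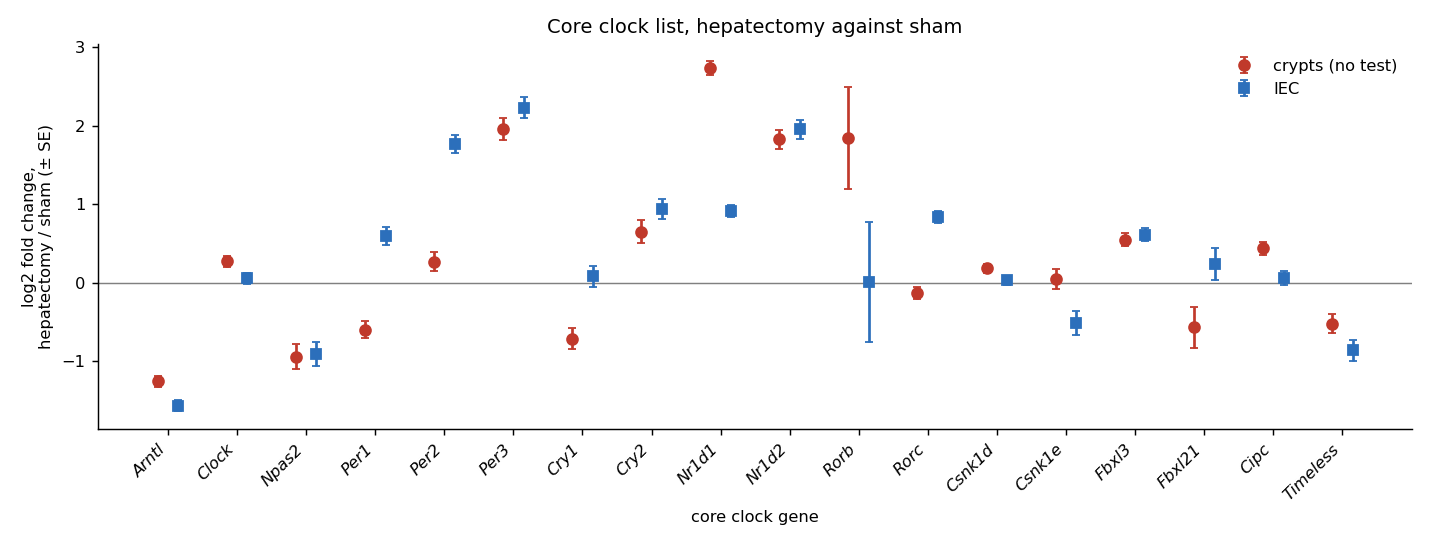
Log2 fold changes after hepatectomy (y axis, ± SE) of the 18 core clock genes (x axis) in crypts (red circles, not tested) and IEC (blue squares). Arntl is lowest in both (-1.26 in crypts, -1.57 in IEC), while Nr1d1 is highest in crypts at 2.73 and Per3 in IEC at 2.23.

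Reported targets of the PAR bZIP factors or of NFIL3, from studies of mouse liver and intestine, were measured as a list of 13 genes. Of these, 10 were tested in the intestine. They are called PAR bZIP targets here, though the list does not tell targets of the activators from those of the repressor. In IEC 8 of the 10 rose and 1 fell after hepatectomy, with a median log2 fold change of 1.46, against 0.0235 over all genes. Of all genes, 19.5% rose and 18.3% fell in IEC. Abcb1a, a drug efflux pump, averaged 229 ± 11 CPM in hepatectomy IEC and 49.4 ± 0.079 CPM in sham IEC (log2 fold change 2.21 ± 0.055, adjusted p = 7.7e-11). Por, the electron donor of cytochrome P450 enzymes, rose by 1.69 ± 0.051 (adjusted p = 2.1e-10) and Abcc2, an export pump for conjugates, by 1.69 ± 0.052 (adjusted p = 2.8e-10). In crypts, without a test, 8 of the 10 were higher and 1 lower with no overlap, beside 34.6% and 34.5% of all genes. Their median was 0.941, against 0.00728 over all genes. Several of the list, such as the peptide transporter Slc15a1, are also genes of mature enterocytes, whose markers moved the same way, and the part of that shift was not tested. In crypts against IEC 9 of the 10 fell in sham mice and 9 fell after hepatectomy, beside 19.3% and 25.6% of all genes. The medians were -0.637 and -1.41, against 0.0171 and 0.0112 over all genes. Of 9 tested genes among other clock-controlled genes, 7 rose and none fell in IEC after hepatectomy, among them Tsc22d3, a leucine zipper gene also known as a glucocorticoid target (0.95 ± 0.057, adjusted p = 7.5e-08), and Nampt, an enzyme of NAD synthesis (0.70 ± 0.060, adjusted p = 1.9e-06). In crypts 4 of these 9 were higher and 2 lower with no overlap, beside the 34.6% and 34.5% of all genes. Tsc22d3 was among the lower, with 27.9 and 29.0 CPM in hepatectomy crypts and 37.8 CPM in both sham crypt libraries. Nampt was among the higher, with 45.5 and 43.3 CPM in hepatectomy crypts and 38.6 and 39.5 CPM in sham crypts.

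In the libraries labelled liver, 5 of the 8 factors rose at day 10 against day 0 (Dbp, Tef, Hlf, Bhlhe41, Rora) and none fell, while 24.7% of all 16694 genes tested rose and 18.8% fell. At day 20 against day 0, 7 rose and none fell, Ciart being the member not called, and the shares over all genes were 33.3% and 38.1%. At day 20 against day 10 the same count of 7 rose and none fell, with shares of 30.8% and 40.3%. The comparisons share libraries and are not independent of each other. The median log2 fold change over all genes was 0.104, -0.164 and -0.206 in these comparisons. The day 20 comparisons set libraries rich in hepatocyte markers against libraries rich in crypt markers, as given above, so the day and the tissue content cannot be told apart. Sex-linked genes also split by day, and sex cannot be told apart from day either: as CPM of all counts, Xist stood at 23.7 to 32.6 at day 0, 393 to 580 at day 10 and 0.914 to 1.28 at day 20, and the Y-linked Ddx3y at 15.2 to 30.1, 0.528 to 2.20 and 43.4 to 47.1. The 10 hepatocyte markers summed, also as CPM of all counts, to 1110 to 3190 at day 0, 2190 to 5700 at day 10 and 90300 to 92400 at day 20. At day 10 against day 0, 8 of these 10 rose, as did 7 of 8 enterocyte markers (median 1.76) and 3 of 3 tuft cell markers (median 1.89). Of 4 crypt stem cell markers 2 fell. In replicate order, the hepatocyte sums at day 10 were 2440, 2190 and 5700 CPM of all counts, so replicates 1 and 2 lay within the day 0 range. The enterocyte sums were 898, 895 and 4320 CPM of all counts at day 10 and 617 to 664 CPM at day 0. Replicate 3 was thus the highest in both. The part of these shifts in the factors' levels was not tested.

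Rora had 1.42, 1.28 and 1.26 CPM at day 0, 2.06, 3.54 and 6.51 CPM at day 10 and 111, 117 and 112 CPM at day 20. The 3 days do not overlap, and day 20 stands apart from both others. Day 10 against day 0 gave a log2 fold change of 1.58 ± 0.32 (adjusted p = 0.0042) and day 20 against day 0 one of 6.42 ± 0.34 (adjusted p = 2.0e-09).

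Hlf, in liver a regulator of the same metabolic genes as Dbp and Tef, had 0.245, 0.218 and 0.385 CPM at day 0, 0.303, 0.856 and 1.74 CPM at day 10, and 37.5, 40.3 and 40.0 CPM at day 20. Its day 10 libraries overlap those of day 0, and replicate 3 of day 10 is the highest of them. The log2 fold change was 1.69 ± 0.50 at day 10 against day 0 (adjusted p = 0.018) and 0.93 (adjusted p = 0.080) without that library; at day 20 against day 0 it was 7.11 ± 0.45 (adjusted p = 9.7e-09).

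Bhlhe41 went the same way, with 0.0489, 0.0435 and 0.128 CPM at day 0, 0.182, 0.163 and 0.868 CPM at day 10 and 3.16, 3.94 and 4.68 CPM at day 20. Its day 0 values rest on 2 to 5 counts. Day 10 against day 0 gave 2.35 ± 0.74 (adjusted p = 0.024), or 1.19 (adjusted p = 0.17) without replicate 3 of day 10, and day 20 against day 0 gave 5.69 ± 0.69 (adjusted p = 7.0e-06). In replicate 3 of day 10 Alb stood at 1900 CPM of all counts, against 438 and 562 in the other day 10 libraries. Olfactory receptor genes there summed to 1110 CPM of all counts, against 389 and 444. The part of either in these values was not tested.

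Dbp had 0.269, 0.849 and 0.462 CPM at day 0, 2.57, 2.93 and 1.83 CPM at day 10, and 12.1, 7.27 and 8.54 CPM at day 20. The 3 days do not overlap. The log2 fold change was 2.20 ± 0.39 at day 10 against day 0 (adjusted p = 0.0024) and 1.92 ± 0.35 at day 20 against day 10 (adjusted p = 0.00029). Sphk2 stood at 53.9 to 57.6 CPM at day 0, 48.4 to 54.5 CPM at day 10 and 104 to 114 CPM at day 20. Sphk2 was thus high together with Dbp at day 20, and its part in the Dbp counts was not tested.

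Tef had 1.74, 2.18 and 2.49 CPM at day 0, 5.91, 7.01 and 5.21 CPM at day 10, and 57.9, 56.6 and 57.0 CPM at day 20. Replicates at day 20 differ by little, and the days do not overlap. Day 10 against day 0 gave 1.50 ± 0.18 (adjusted p = 0.00029) and day 20 against day 10 gave 3.24 ± 0.18 (adjusted p = 4.0e-09).

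Nfil3 varied least among the factors called at day 20, with 23.3, 27.6 and 23.4 CPM at day 0, 21.9, 22.6 and 20.7 CPM at day 10 and 36.6, 31.8 and 35.3 CPM at day 20. Day 20 against day 0 gave 0.48 ± 0.14 (adjusted p = 0.0081), and day 10 against day 0 did not pass the test (-0.19, adjusted p = 0.29). The day 20 call was lost without replicate 3 of day 0 (0.38, adjusted p = 0.11), without replicate 1 of day 20 (0.43, adjusted p = 0.054) and with no filter on low counts (0.39, adjusted p = 0.12).

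Bhlhe40 had 44.5, 44.0 and 39.3 CPM at day 0, 41.8, 31.7 and 37.0 CPM at day 10, and 102, 106 and 106 CPM at day 20. Day 20 lies above both other days (1.30 ± 0.14 against day 0, adjusted p = 2.4e-06), while day 10 against day 0 did not pass the test (-0.21, adjusted p = 0.23). Ciart had 1.25, 0.609 and 0.411 CPM at day 0, 1.21, 1.34 and 1.98 CPM at day 10, and 0.662, 1.16 and 1.37 CPM at day 20. Its libraries overlap between all days, and no comparison passed the test (adjusted p = 0.13 to 0.40). At day 20 against day 10 the changes of the 7 factors that rose ran from 0.67 ± 0.14 for Nfil3 (adjusted p = 0.00097) to 5.43 ± 0.41 for Hlf (adjusted p = 6.9e-08).

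**Figure D5:**
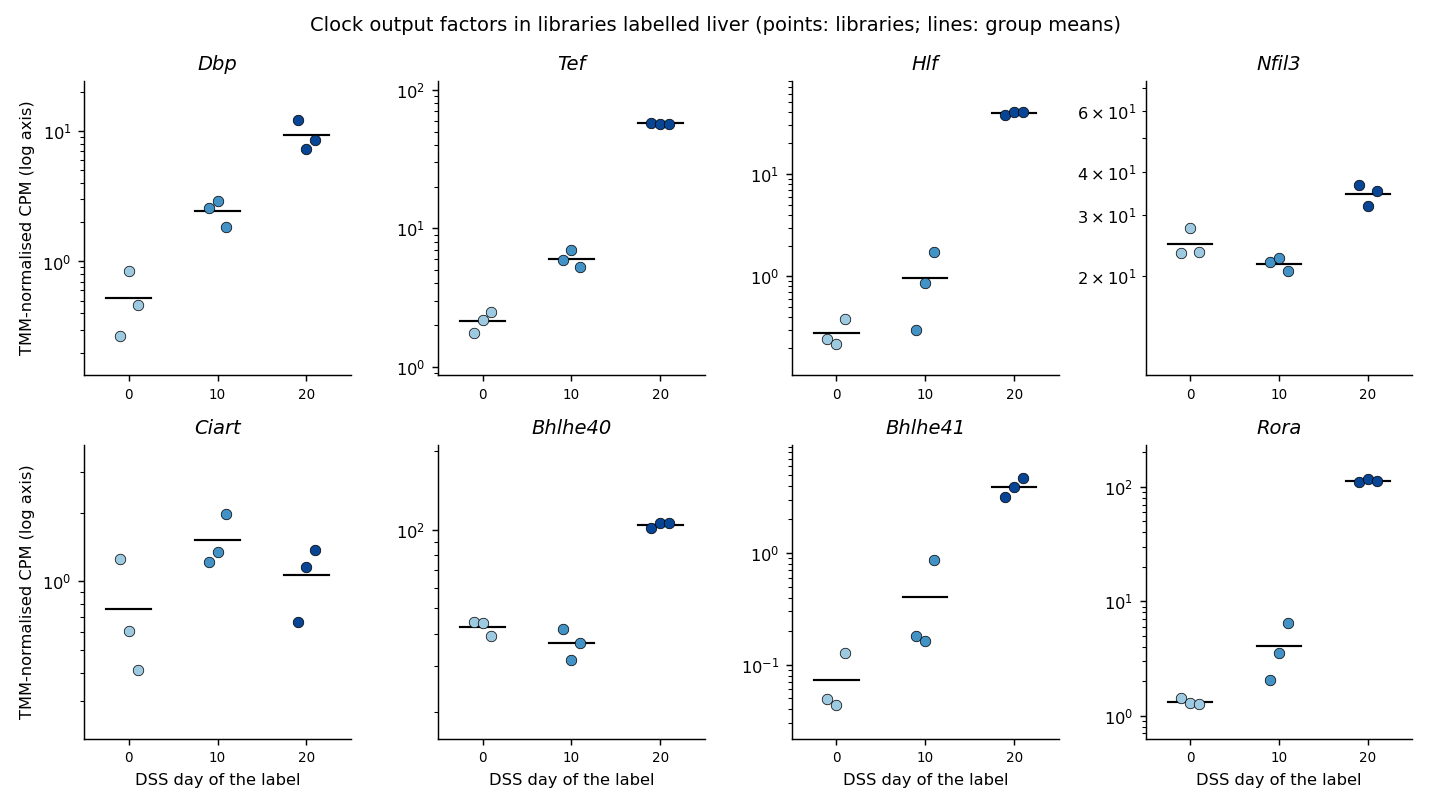
Levels of the 8 factors in the libraries labelled liver, as TMM-normalised CPM on a log axis that differs between panels, by DSS day of the label (x axis); each point is a library and each line a group mean, with 3 libraries per day. Day 20 lies above day 0 and day 10 without overlap in every panel except Ciart, and at day 10 the ratio of highest to lowest library is largest for Rora, Hlf and Bhlhe41.

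Per kilobase of exon model, the order at day 20 was Bhlhe40 (22.2 ± 0.48 CPM per kb), Nfil3 (17.1 ± 1.2), Rora (8.70 ± 0.25), Tef (7.27 ± 0.081), Hlf (5.88 ± 0.23), Dbp (3.11 ± 0.84), and then Bhlhe41 (0.585 ± 0.11) and Ciart (0.471 ± 0.16), whose libraries overlap. Per length of the longest transcript Tef came before Rora. At day 0 Nfil3 (12.2 ± 1.2 CPM per kb) and Bhlhe40 (9.06 ± 0.61) led, in the other order per length of the longest transcript, and Ciart (0.334 ± 0.19) and Tef (0.271 ± 0.048), whose libraries overlap, came next. The PAR bZIP sum was 0.0302 to 0.0458 times the level of Nfil3 at day 0, 0.150 to 0.179 times at day 10 and 0.924 to 0.997 times at day 20. Per length of the longest transcript it was 0.0509 to 0.0768, 0.244 to 0.299 and 1.42 to 1.53 times, so whether the activators lay above or below Nfil3 at day 20 turns with the transcript model. Hlf made up 33.0 to 38.5% of the summed activator level at day 20, against at most 17.4% in any other library.

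The lists around the factors moved in both directions at day 20, as did the genes as a whole. Of the core clock genes 10 rose and 7 fell against day 0, led by Nr1d1 (4.13 ± 0.18, adjusted p = 3.6e-10) and the cryptochrome gene Cry2 (3.36 ± 0.19, adjusted p = 4.1e-09), while Timeless, better known in mammals for DNA replication, fell by 2.52 (SE 0.19, adjusted p = 5.5e-08). Of 13 PAR bZIP targets 8 rose and 5 fell, led by Nr1i3, the nuclear receptor CAR (5.69 ± 0.25, adjusted p = 4.2e-10), Abcc2 (5.73 ± 0.28, adjusted p = 9.5e-10) and Cyp2a4 (7.88 ± 0.44, adjusted p = 2.7e-09), whose reads can be shared with the near-identical Cyp2a5. Of the 10 other clock-controlled genes 5 rose and 5 fell. The medians of the lists were 1.10, 2.23 and 0.23, against -0.164 over all genes, of which 33.3% rose and 38.1% fell. The falling counts of the core clock and PAR bZIP target lists lie near that falling share. At day 20 against day 10 the counts were 10 rising and 7 falling, 8 and 5, and 4 and 3 in these 3 lists. Of all genes, 30.8% rose and 40.3% fell in that comparison. At day 10 against day 0, 24.7% of all genes rose and 18.8% fell. Of the 18 core clock genes 6 rose and 3 fell, and 7 of 13 PAR bZIP targets rose and none fell. Of 10 other clock-controlled genes 4 rose and 1 fell, the last being Nampt (-1.25 ± 0.15, adjusted p = 0.00029). Of the 13 PAR bZIP targets, 4 were higher and 2 lower at day 10 with no overlap. As CPM of all counts, without TMM scaling, these 13 summed to 368, 295 and 618 CPM at day 10, in replicate order. At day 0 they summed to 387 to 396 CPM. Nr1d1 averaged 28.2 ± 3.6 CPM at day 10 and 9.29 ± 1.6 CPM at day 0 (1.60 ± 0.16, adjusted p = 7.7e-05), and Abcc2 14.5 ± 5.5 CPM at day 10 and 5.26 ± 1.2 CPM at day 0 (1.45 ± 0.24, adjusted p = 0.0020).

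The genes whose levels ran most alike with each factor were taken by Pearson's correlation of log2 CPM, over the 8 intestinal libraries and over the 9 labelled liver; the libraries of a group share operation, preparation or day, so the values describe these libraries only. Over the intestinal libraries these were Pxmp4 (0.994) and Fkbp5 (0.993) for Dbp, Bcl2l15 (0.992) and Edn2 (0.990) for Tef, and Hsbp1 (0.997) and Timm17b (0.991) for Hlf. For Nfil3 they were Ctc1, of a telomere complex, at 0.991 and Arntl at 0.985. Slc20a1 (0.987) and Pex11a (0.977) ran with Ciart and Plscr1 (0.997) and Ist1 (0.994) with Bhlhe40, while Rora reached 0.898 with St6galnac2 and 0.874 with Gon4l. Over the libraries labelled liver they were Man2a2 (0.989) and Ubr4 (0.985) for Dbp, Lrp1 (0.999) and Helz2 (0.998) for Tef, Npr2 and Cyp3a44 (both 0.999) for Hlf, and Slc38a7 (0.977) and Scly (0.970) for Nfil3. Ciart reached 0.871 with Banp and 0.803 with Dusp1, Bhlhe40 0.998 with Tusc2 and 0.997 with Anxa5, Bhlhe41 0.994 with both Arl4d and Ildr2, and Rora 1 after rounding with both Tmem86b and Eng. No gene was shared between the intestinal and the other pairs of any factor.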

How the data were processed

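Per the submitters' processing notes, the authors used STAR and Partek with mm10; no versions are named there. For the intestine the authors deposited expected counts, estimated per gene symbol (36.7% not whole), which were rounded here. For the libraries labelled liver the authors deposited whole-number counts per Entrez identifier; 99.9% matched a symbol, and the 24 unmatched hold 3.93 to 22.1% of a library's counts. Coordinates follow GENCODE vM21, whose ends are 1 below the files' stops for 99.2% of 32718 symbols.

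Both tables were fitted apart, over all genes, in R 4.3.3 with edgeR 4.0.16 (TMM, filterByExpr with minimum count 10 and total 15, quasi-likelihood F test, calls at adjusted p under 0.05) and tested on simulated data. DESeq2 1.42.0, RLE, filters, a replicate block, smaller fits and left-out libraries were alternatives. Figures were drawn with matplotlib 3.10.9. Samples were grouped by title, and no library was left out.

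The members and lists were chosen with earlier results of these data known. Besides members, the rule names up to 3 list genes per comparison with the smallest p (Arntl, Nr1d1 and Per2 in crypts), and the 2 genes most correlated with each member at a mean of at least 5 CPM, leaving out predicted gene models; not all are printed. Counts per library, of 12742629 to 43580050, limit precision for members with few counts.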

Additional observations from a re-analysis of the deposited data

Results flagged for a closer look

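For Hlf, the hepatectomy effect in crypts minus that in IEC was -3.38 on the log2 scale. Both hepatectomy crypt libraries were below both sham crypt libraries (0.206 and 0.140 against 0.441 and 0.484 CPM), while both hepatectomy IEC libraries were above both sham IEC libraries (2.59 and 3.86 against 0.858 and 0.806 CPM). For Bhlhe40 the same difference was -0.87, with hepatectomy crypts at 43.8 and 49.0 CPM against 50.1 and 50.0 CPM in sham crypts, and hepatectomy IEC at 91.3 and 88.8 CPM against 52.7 and 53.7 CPM in sham IEC. What singled them out is that the hepatectomy libraries lay below the sham libraries in crypts and above them in IEC, with no overlap. For Bhlhe40 the difference in crypts was small, at a log2 fold change of -0.11 (SE 0.061). The Hlf values in hepatectomy crypts rest on 7 and 6 counts. Neither difference was tested, because the members were chosen with the crypt comparison known. Dixon's outlier test was not run on these groups of 2 or 3 libraries. Replicate 3 of day 10 stands apart by its values, with Lyz1 at 1280 CPM of all counts against 7670 and 5870 CPM in the other day 10 libraries, beside the Alb and olfactory receptor values given above.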

How the results depend on the processing

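Of 638 values recomputed for tested comparisons, 620 kept direction and side of the threshold, 15 were no longer past it, 1 newly passed and 2 changed sign. The sign changes were Rora in crypts against IEC after hepatectomy, at -0.25 without replicate 2 of hepatectomy IEC and -0.45 without replicate 1 of hepatectomy crypts (range over left-out libraries -0.45 to 0.48). Of the members called in that comparison (5), the stricter filter left 3 of 4 tested. At day 10 against day 0 (5 called), fitting only the groups compared gave 3 of 7, and leaving out a library gave 3 to 6: 3 without replicate 1 or 2 of day 0 or replicate 3 of day 10, and 6 without replicate 1 of day 10, where Bhlhe40 fell (-0.47, adjusted p = 0.034). Calls lost were Nfil3 in crypts against IEC after hepatectomy (5 alternatives), Hlf and Bhlhe41 at day 10 (4 and 3) and Nfil3 at day 20 against day 0 (3); the cause was not tested. Over all genes, day 10 against day 0 had 4129 rising and 3146 falling, but 2136 and 3389 when only those groups were fitted, 2623 and 1800 under the stricter filter and 4204 and 4310 with no filter. With the replicate number as a block, 6, 1, 5, 5, 7 and 7 members were called in the 6 tested comparisons, as without it, and no member's call changed; same-numbered libraries correlated at -0.0132 to 0.0782 in the intestine and -0.0575 to 0.0471 in those labelled liver, so the numbers were not taken as pairs. Levels below about 10 counts, as for Bhlhe41 in the intestine, limit what could be seen there.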
